A study of Homo sapiens with 30 samples.

Results

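HT29 cells exposed for 24 h to a 500 µg/mL ethanol extract of Soshiho-tang were compared with HT29 cells exposed to 100 µg/mL of the same extract. HT29 is an established human colorectal adenocarcinoma line, and Soshiho-tang is a herbal formula built around Bupleurum root, known elsewhere as Sho-saiko-to or Xiao Chai Hu Tang. The libraries were chosen by their labels, 3 labelled high dose and 3 labelled medium dose, which makes 6 of the 30 libraries of the series. The comparison asks what a 5-fold increase at the top of the dose range added to what 100 µg/mL already did. Each group received the formula extracted with 70% ethanol and dissolved in DMSO. The vehicle group of the same batch received 0.1% DMSO per the labels, whereas the design text gives 2%. The design text also states that extracts whose IC20, the concentration that lowers viability by 20%, lay under 500 µg/mL were used at their IC20 and at 1/5 and 1/25 of it. Which of these rules applied to Soshiho-tang is not stated in the labels or design text, so the labels' 500, 100 and 20 µg/mL were taken as the doses. The fit also used the 20 µg/mL and vehicle libraries and the 3 doses of a second formula, Yijin-tang, all with 3 libraries and all from the same batch.

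Plant extracts contain many ligands of the aryl hydrocarbon receptor (AHR), a transcription factor that enters the nucleus when bound, pairs with ARNT and turns on the cytochromes CYP1A1 and CYP1B1. Electrophiles in such extracts also release NRF2 from KEAP1, its repressor, and NRF2 then raises genes for glutathione synthesis, thioredoxin and NADPH supply. Shortage of amino acids, loss of glutathione or unfolded protein leads to translation of ATF4, which raises amino acid transport and synthesis genes. In the colon, ATOH1 commits progenitors to the mucus-secreting lineage, and HT29 cells keep traces of that program.

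The 6 libraries each held between 20450438 and 27969464 expected counts, against 18477059 to 36162296 over all 30. Levels are given as CPM, counts scaled to the effective library size, and a gene was called when edgeR's quasi-likelihood test gave a Benjamini-Hochberg adjusted p below 0.05 over all 15895 genes tested. The labels do not say that the 3 libraries of a group came from separate cultures. The p-values therefore measure the spread between these libraries, which may be technical. Vehicle means are given for scale only, as no contrast with the vehicle was tested. In a principal component analysis of the fitted libraries, the vehicle libraries stood apart on the second axis. They lay at 15.1, 24.9 and 30.2, against -9.2 to 4.8 for the extract libraries of both formulas. The cause of this gap was not tested. The epithelial markers matched the labelled line, with EPCAM between 521 and 535 CPM in all 6 libraries. Of 12 markers of fibroblast, blood and endothelial cells, 3 had no count in any of the 6, and the 12 together summed to 9.51 to 10.7 CPM at 500 µg/mL and 8.61 to 8.93 CPM at 100 µg/mL. Of the 4 tested, PECAM1 and LUM rose, by 0.69 and 1.07 on the log2 scale, and their part in the results was not tested. PECAM1 lost its call without high-dose library 2 or medium-dose library 1 or 3 (0.61 to 0.63) and in DESeq2 (0.70, adjusted p = 0.053). Medium-dose library 1 stood apart from the other 2 medium-dose libraries. It held 0.585 CPM of CYP1A1 against 3.01 and 2.99, and 46.9 CPM of CYP1B1 against 91.1 and 94.0. It lay on the other side for sterol genes, with HMGCS1 at 223 CPM against 181 and 184. Values without it therefore stand beside many of the results they bear on.

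The step from 100 to 500 µg/mL changed 3608 genes, 22.7% of those tested, of which 1786 were higher (11.2%) and 1822 lower (11.5%). The median log2 fold change over all genes was -0.01. Most changes were small: 2929 of the called genes, 81.2%, moved by less than 1.5-fold. Past 2-fold, the step was uneven, with 57 genes higher (0.359% of those tested) and 220 lower (1.38%). The strongly lowered genes were mostly of low abundance: 130 of the 220 averaged under 1 CPM, against 16 of the 57 raised ones. The 3 libraries of 1 dose lay wholly above or below those of the other for 97.6% of the called genes and for 40.4% of all genes. The step changed 2656 genes when medium-dose library 1 was left out. Because these are bulk samples, fewer cells of a kind and less RNA per cell cannot be told apart in any of the values below.

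**Figure D1:**
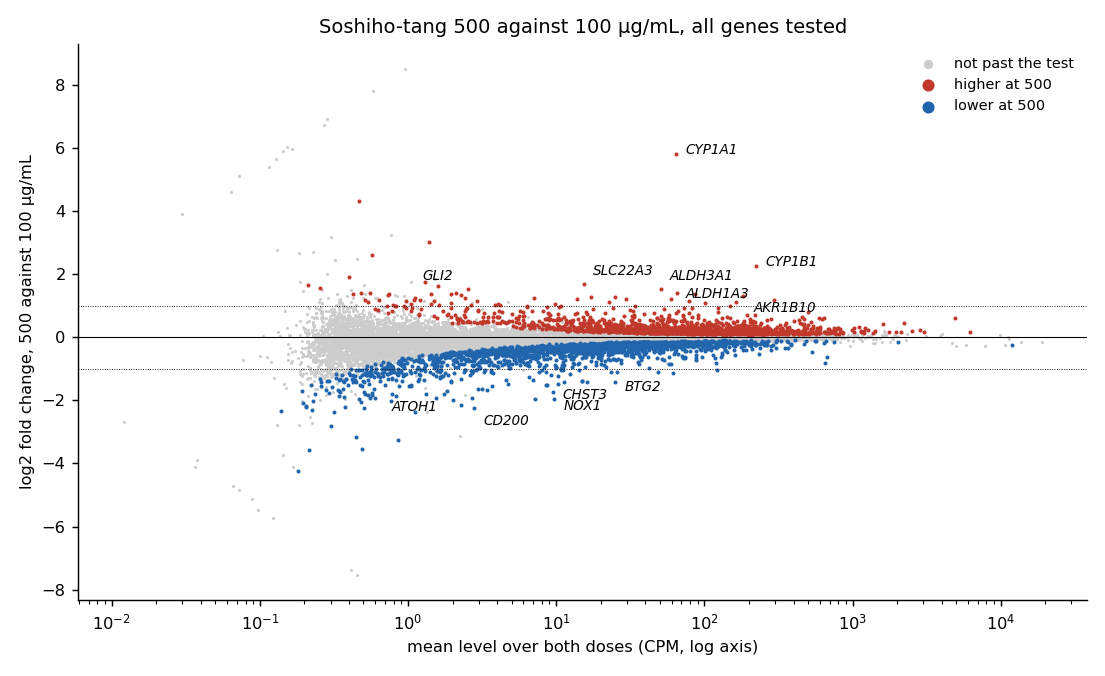
Change in every tested gene from 100 to 500 µg/mL of Soshiho-tang (log2 fold change, vertical axis) against its mean level over both doses (CPM, log axis). Red points were called higher and blue points lower, and dotted lines mark 2-fold. CYP1A1 stands alone at 5.82, and most blue points past 2-fold lie at the low-abundance left side.

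The step below, from 20 to 100 µg/mL, is the same ratio of doses. It gave 0 called genes in edgeR, with 479 genes at an unadjusted p below 0.05, and 0 called genes in DESeq2, with 237 unadjusted. Among the 12028 genes with at least 2 CPM at 100 µg/mL, 620 moved by at least 0.5 on the log2 scale in the upper step and 19 in the lower one. The corresponding numbers past 1 were 101 and 3. A test of the difference between the steps, which share the 100 µg/mL libraries, called 748 genes (4.71%), 368 with a higher value in the upper step (2.32%) and 380 with a lower one (2.39%). That test called 379 genes without medium-dose library 1. The list counts given below for the test between steps are from the fit of all libraries.

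**Figure D2:**
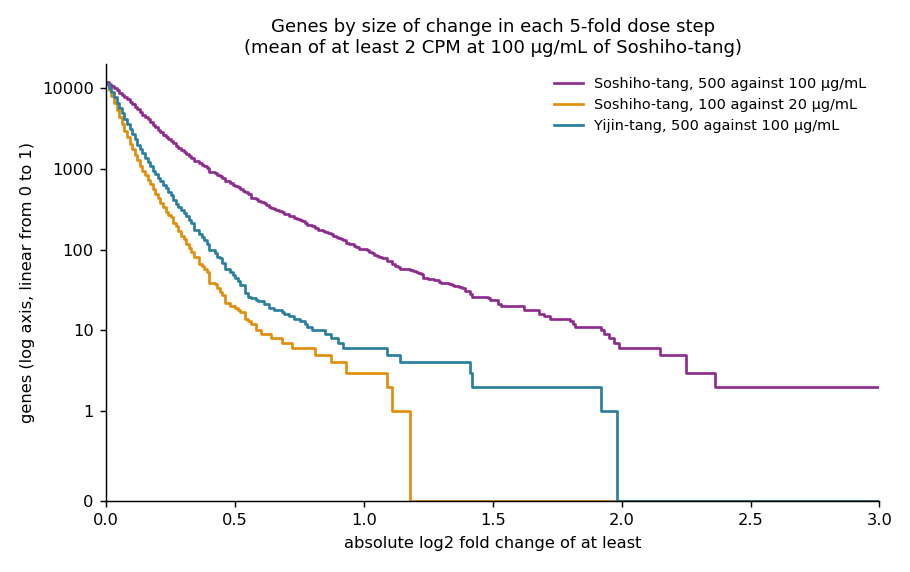
Number of genes (log axis, linear from 0 to 1) whose absolute log2 fold change reached at least the value on the horizontal axis, among the 12028 genes with at least 2 CPM at 100 µg/mL. The purple line is the Soshiho-tang step from 100 to 500 µg/mL, orange its step from 20 to 100, and blue-green the Yijin-tang step from 100 to 500. At 0.5 the lines stand at 620, 19 and 42 genes.

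The AHR pathway held the largest rise among the called genes. CYP1A1 (ENSG00000140465), a cytochrome that oxidises aromatic hydrocarbons, is a protein-coding gene at chr15:74719542-74725610 on the minus strand (GENCODE 29, GRCh38). It stood at 126, 133 and 123 CPM at 500 µg/mL and at 0.585, 3.01 and 2.99 CPM at 100 µg/mL. All 3 high-dose libraries were far above all 3 medium-dose libraries, whose lowest value was close to the vehicle mean of 0.602 CPM. The fold change was 56.4 (log2 5.82 ± 0.25 SE, adjusted p = 1.5e-10 by edgeR with Benjamini-Hochberg adjustment). CYP1B1, its relative that acts on estrogens and retinoids, was at 364, 374 and 371 CPM against 46.9, 91.1 and 94.0 CPM (log2 2.25 ± 0.21, adjusted p = 1.2e-06). TIPARP, an ADP-ribosyltransferase that shuts AHR off, was at 223, 219 and 232 CPM against 84.9, 114 and 111 CPM (log2 1.12 ± 0.09, adjusted p = 4.0e-08). The groups did not overlap for any of these 3 genes, as for 97.6% of all called genes. In each the lowest value belonged to medium-dose library 1. The aldehyde dehydrogenases ALDH3A1 and ALDH1A3 rose by 1.52 ± 0.11 and 1.42 ± 0.17 on the log2 scale. AHRR, the receptor's competitor, rose less, from 6.57, 5.37 and 7.07 CPM to 8.93, 10.2 and 8.11 CPM (log2 0.52 ± 0.12, adjusted p = 0.0016).

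Of the 12 pathway genes tested, of 13 listed, 9 rose, against 11.2% of all genes, 1 fell and 2 did not pass the test, and their median log2 was 0.56 beside -0.01 over all genes. The receptor itself was among the 2, with log2 -0.08 ± 0.05 (adjusted p = 0.27), and its partner ARNT was the gene that fell (log2 -0.19), a call lost without high-dose library 2 (adjusted p = 0.053). The drug-conjugating UGT1A1 and UGT1A6 rose by 0.58 and 0.55. They share exons, so reads may have been divided between them. CYP1A2, the untested member, reached at most 0.199 CPM. The counts were again 9 and 1 without medium-dose library 1, with a median of 0.55. In the test between steps 7 of the 12 moved more in the upper step, against 2.32% of all genes with a higher value there. The largest differences were 4.70 for CYP1A1 and 1.94 for CYP1B1. Without medium-dose library 1 these differences were 3.88 and 1.44, and without medium-dose library 3 that of CYP1A1 was 5.33.

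The 60 bases around the core of the AHR binding element show where 3 of the raised genes carry it close to their start. The core is GCGTG, searched on both strands and printed in capitals, which appear as CACGC where it lies on the opposite strand. Sequences are RefSeq promoter windows of GRCh38.p14, 5′ to 3′ on the gene's strand: CYP1A1 at chr15:74725554-74725613 on the minus strand, TIPARP at chr3:156674420-156674479 and ALDH1A3 at chr15:100879760-100879819 on the plus strand.
CYP1A1: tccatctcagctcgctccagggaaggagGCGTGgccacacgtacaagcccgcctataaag
TIPARP: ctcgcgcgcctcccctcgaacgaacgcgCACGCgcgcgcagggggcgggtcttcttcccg
ALDH1A3: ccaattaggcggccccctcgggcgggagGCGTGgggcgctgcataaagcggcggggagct
In 300-base windows the core occurred in 6 of the 10 pathway genes with a RefSeq promoter and in 36.3% of all 27305 promoters. A match of 5 letters is a description of the sequence and no evidence of binding.

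**Figure D3:**
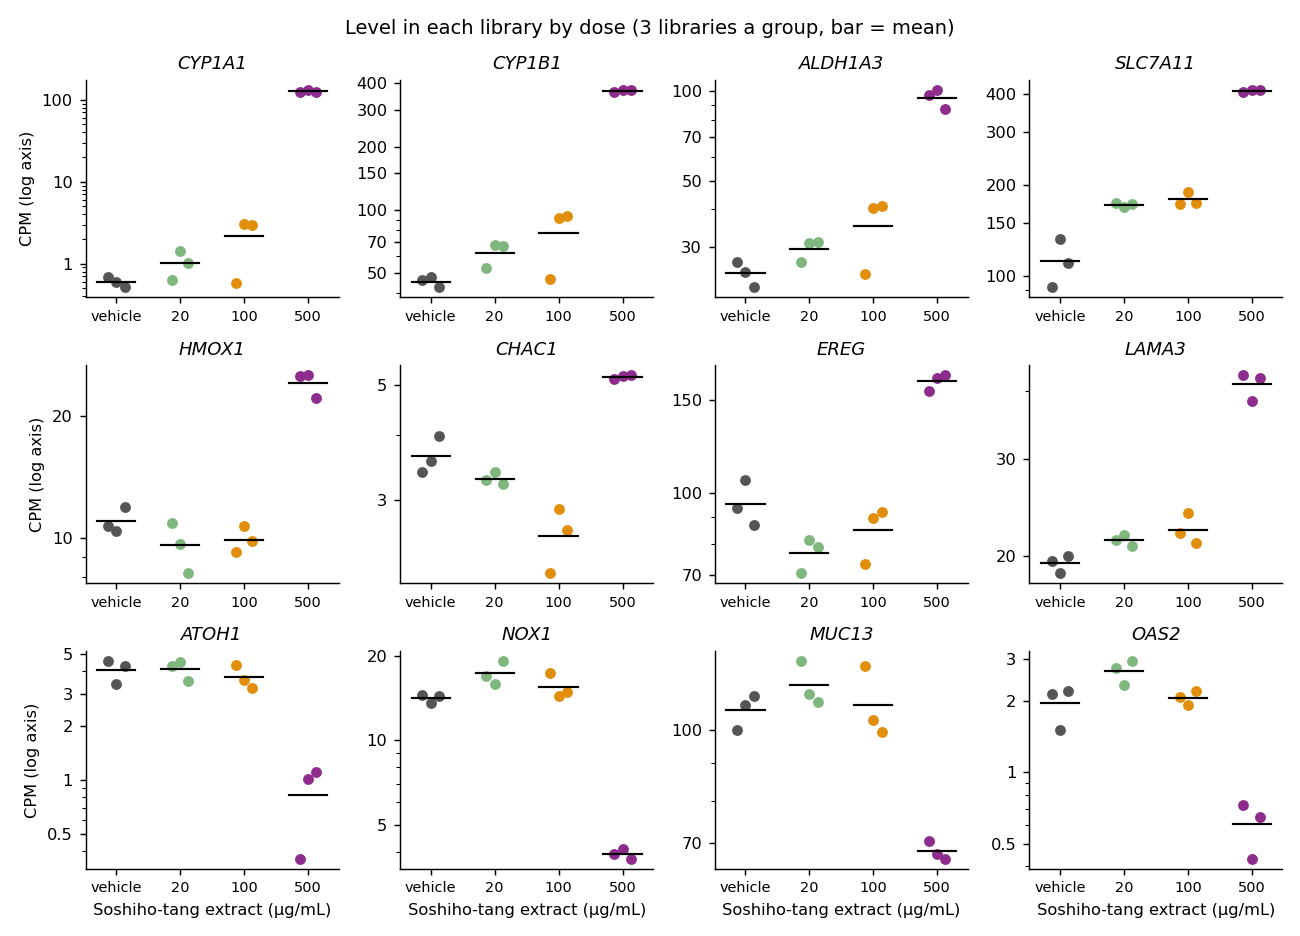
Level of 12 genes (CPM, log axis) in each library of the vehicle and of 20, 100 and 500 µg/mL Soshiho-tang, with a bar at the mean of 3 libraries. In the first 8 panels the 500 µg/mL libraries lie above those at 100 µg/mL and in the last 4 below, and the low orange point of CYP1A1, CYP1B1 and ALDH1A3 is medium-dose library 1.

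NRF2 targets rose as a block. Of 33 listed genes 32 were tested, and 32 of the 32 were higher at 500 µg/mL, against 11.2% of all genes, with log2 values from 0.13 to 1.36 and a median of 0.52. The cystine importer SLC7A11, which feeds glutathione synthesis, was at 407, 414 and 415 CPM against 174, 190 and 175 CPM (log2 1.19 ± 0.09, adjusted p = 3.8e-08). GCLM, the modifier subunit of the enzyme that makes the glutathione precursor, was at 136, 139 and 137 CPM against 57.9, 68.8 and 67.1 CPM (log2 1.09 ± 0.07, adjusted p = 6.3e-11), and the catalytic subunit GCLC rose by 0.79. HMOX1, which breaks down heme, was at 25.1, 25.2 and 22.2 CPM against 9.22, 10.7 and 9.84 CPM (log2 1.29 ± 0.09, adjusted p = 4.6e-12). For each of these the 2 doses were separated without overlap, as for 97.6% of all called genes. The spread within a dose was small beside the gap between doses. HMOX1 at 100 µg/mL did not stand above the vehicle mean of 11.0 CPM. SLC7A11 at 20 and 100 µg/mL stood above its vehicle mean of 112 CPM, a difference that was not tested.

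AKR1B10, a reductase of reactive aldehydes (chr7:134527592-134541408, plus strand), showed the lowest adjusted p of the list, rising from 96.1, 113 and 106 CPM to 257, 264 and 262 CPM (log2 1.31 ± 0.05, adjusted p = 7.7e-17). SQSTM1, the autophagy receptor that binds KEAP1, rose by 0.53 ± 0.03. The largest log2 in the list, 1.36, was that of the low-abundance exporter ABCC2. AKR1C1, AKR1C2 and AKR1C3 are near-identical, and FTH1 and FTL have many pseudogene copies, so their rises of 0.46 to 1.13 are uncertain as to the gene. Without medium-dose library 1, 31 of the 32 passed, with a median of 0.46, the exception being TALDO1 of the pentose phosphate pathway. That gene, at 0.13 in the fit of all libraries, passed only without high-dose library 3 among the 6 fits that left out 1 library (0.11 to 0.14 in the other 5). In the test between steps 25 of the 32 moved more in the upper step, against 2.32% of all genes with a higher value there. The list's median in the lower step was 0.03, and 0.06 without medium-dose library 1. Among the regulators, mRNA for NRF2 itself (NFE2L2) rose by 0.26 ± 0.05 (adjusted p = 9.0e-05) and its small partner MAFF by 0.56. KEAP1 and CUL3, which together mark NRF2 for degradation, rose by 0.15 and 0.14, while BACH1 and MAFK did not pass the test, although MAFK did without high-dose library 3 (0.22). The call of KEAP1 was lost without high-dose library 2 or medium-dose library 1 or 3 (0.09 to 0.15), and that of CUL3 without any of 4 single libraries, high-dose 1 and 3 and medium-dose 1 and 2 (0.13 to 0.15). GCLM carries the antioxidant response core TGACNNNGC on the opposite strand, starting at position -34 from the gene's start. The printed bases are chr1:93909431-93909490 on the minus strand (RefSeq, GRCh38.p14), with the fixed letters in capitals.
GCLM: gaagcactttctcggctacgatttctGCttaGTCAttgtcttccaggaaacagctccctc
This core was found in 7 of 23 NRF2 targets with a promoter window and in 13.6% of all windows.

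Stress genes under ATF4 rose in part. Of 20 tested genes of 22, 11 were higher, against 11.2% of all genes, 0 were lower and 9 did not pass, with a median of 0.29. CHAC1, which degrades glutathione, was at 5.15, 5.21 and 5.23 CPM against 2.16, 2.88 and 2.62 CPM (log2 1.02 ± 0.14, adjusted p = 2.4e-06). Its 100 µg/mL libraries all lay below the vehicle mean of 3.65 CPM. ASNS, the asparagine synthetase, was at 86.4, 85.0 and 93.6 CPM against 55.3, 58.1 and 52.8 CPM (log2 0.67 ± 0.05, adjusted p = 5.4e-11). The transcription factors ATF3 and DDIT3 rose by 0.78 and 0.60, and PPP1R15A, which restores translation after stress, by 0.54. TRIB3 and PSAT1 rose by 0.39 and 0.36, and ATF4 mRNA by 0.18 ± 0.04 (adjusted p = 0.0035). Serine synthesis did not move as a unit, since PHGDH and PSPH did not pass (log2 0.07 and -0.04) while PSAT1 did. In the test between steps 6 of the 20 moved more in the upper step, against 2.32% of all genes with a higher value there.

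The aminoacyl-tRNA synthetases and the tRNA exporter XPOT rose in 10 of 11 cases, beside 11.2% of all genes, by at most 0.32 (WARS1). Of these, 7 passed without medium-dose library 1. Of 13 amino acid transporters 8 rose and 2 fell, beside 11.2% and 11.5% of all genes, with a median of 0.28. SLC3A2, the heavy chain shared by SLC7A11 and the leucine importer SLC7A5, rose by 0.57 and SLC7A5 by 0.39. The glutamine importers SLC38A2 and SLC1A5 rose by 0.43 and 0.29. SLC43A1 and SLC3A1 were the 2 that fell, by 0.33 and 1.14. The ATF4 element core TGATGNAA occurred in the windows of 3 of 18 ATF4 genes and in 3.67% of all windows, and the 3 were ATF3, ASNS and CHAC1, all raised. The element of ASNS lies within the 60 bases at chr7:97872443-97872502 on the minus strand. That of CHAC1 lies within those at chr15:40953236-40953295 on the plus strand, where it reads in the opposite direction (RefSeq, GRCh38.p14).
ASNS: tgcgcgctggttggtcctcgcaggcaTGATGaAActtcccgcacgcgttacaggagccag
CHAC1: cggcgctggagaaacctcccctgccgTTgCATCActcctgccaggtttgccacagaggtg

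Chaperones and other protein-folding stress genes of the endoplasmic reticulum rose broadly but slightly. Of 22 genes 19 were higher, against 11.2% of all genes, and 3 did not pass. The median of the 22 was 0.26 and the highest value 0.52. HSPA5, the main chaperone there, was at 626, 610 and 583 CPM against 428, 446 and 434 CPM (log2 0.48 ± 0.04, adjusted p = 1.6e-09). DNAJB9, its co-chaperone, rose by 0.52, DNAJC3 by 0.42 and the oxygen-regulated chaperone HYOU1 by 0.39, while XBP1, the transcription factor of the response, rose by 0.12 and lost its call without high-dose library 1 or medium-dose library 2 (0.11 in each case). Heat shock genes, not all of them cytosolic, rose in 12 of 19 cases and fell in 1, beside 11.2% and 11.5% of all genes, with a median of 0.18. HSPH1 and FKBP4 rose by 0.37 and 0.30. The small heat shock protein HSPB1 was the 1 that fell, from 129, 104 and 117 CPM to 95.0, 90.4 and 89.6 CPM (log2 -0.35 ± 0.08, adjusted p = 0.0021). HSPA1A and HSPA1B, near-identical copies whose reads may have been divided, rose by 0.16 and 0.23 and stayed below their vehicle means. HSPA1A lost its call without high-dose library 1 or medium-dose library 1 or 2 (0.12 to 0.16). Without medium-dose library 1, 16 of the reticulum genes and 11 of the heat shock genes rose. Genes under PXR and CAR, receptors for drugs and other foreign compounds, gave 1 rise, CYP3A5 with 0.29, among 4 tested of 8, and the call was lost without high-dose library 1 or 3 or medium-dose library 2 or 3 (0.25 to 0.30). Among 7 tested metallothionein and zinc genes 1 rose, the zinc-sensing factor MTF1 with 0.15, a count near the 11.2% over all genes, and it did not pass without high-dose library 2 or 3 or medium-dose library 1 or 2 (0.11 to 0.15).

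Ligands of the EGF receptor and immediate early genes rose. EREG, epiregulin, was at 156, 165 and 167 CPM against 73.4, 89.8 and 92.2 CPM (log2 0.93 ± 0.08, adjusted p = 3.0e-08). HBEGF, AREG and TGFA, further ligands, rose by 0.66, 0.53 and 0.47. EGFR itself was at 260, 251 and 261 CPM against 181, 179 and 186 CPM (log2 0.50 ± 0.03, adjusted p = 8.3e-12), while its partner ERBB3 fell by 0.17. In sum 5 of the 8 tested family genes rose and 1 fell, beside 11.2% and 11.5% of all genes. All raised ones were separated between the doses, as were 97.6% of all called genes. Of 16 tested immediate early genes 12 rose and 0 fell, beside 11.2% and 11.5% of all genes, with a median of 0.33. The AP-1 subunits FOSB and FOSL1 rose by 0.97 and 0.78, JUN by 0.48 and FOS by 0.37, and IER3 by 0.71. Of 12 feedback genes of the ERK cascade, which lies downstream of the receptor, 2 rose and 2 fell, counts near the 11.2% and 11.5% over all genes. DUSP5, an ERK phosphatase, rose by 1.24 ± 0.11 and PHLDA1 by 0.51, whereas the inhibitors SPRY1 and SPRY2 fell by 0.56 and 0.34. DUSP6, SPRY4 and ETV4 did not pass, with log2 values of -0.07, 0.03 and 0.09.

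The anchoring genes of epithelial cells rose in 10 of 13 cases and fell in 0, beside 11.2% and 11.5% of all genes. Their median was 0.31. LAMA3, 1 of the chains of laminin-332, was at 42.7, 38.4 and 42.2 CPM against 22.0, 23.9 and 21.1 CPM (log2 0.88 ± 0.06, adjusted p = 3.8e-12). LAMB3, another of its chains, rose by 0.34, and the integrins ITGA2, ITGA3 and ITGA6 by 0.47, 0.31 and 0.31. In the test between steps 7 of the 13 moved more in the upper step, against 2.32% of all genes with a higher value there. Of 11 YAP and TEAD targets 1 was higher and 1 lower, near the shares over all genes, and the lower one, CCN2, fell by 0.91.

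The secretory lineage was lower at 500 µg/mL. Of 20 tested genes of 24, 13 fell, 1 rose and 6 did not pass, against 11.5% of all genes that fell, and the median was -0.64. ATOH1 (ENSG00000172238), the factor that commits cells to this lineage, lies at chr4:93828753-93830964 on the plus strand (GENCODE 29, GRCh38). It was at 0.364, 1.01 and 1.10 CPM at 500 µg/mL and at 4.32, 3.58 and 3.24 CPM at 100 µg/mL. The doses did not overlap, as for 97.6% of all called genes, and the 100 µg/mL libraries lay around the vehicle mean of 4.08 CPM. The log2 fold change was -2.15 ± 0.22 (adjusted p = 1.3e-08 by edgeR with Benjamini-Hochberg adjustment). DLL4, a Notch ligand, was at 1.05, 2.01 and 1.49 CPM against 5.58, 4.15 and 4.74 CPM (log2 -1.63 ± 0.17, adjusted p = 4.5e-08). CREB3L1, a transcription factor of secretory cells, was at 84.9, 78.0 and 80.0 CPM against 176, 150 and 167 CPM (log2 -1.02 ± 0.08, adjusted p = 1.5e-08). The goblet cell products MUC2, TFF3, AGR2 and REG4 fell by 0.85, 0.67, 0.56 and 0.54. The call of MUC2 was lost without high-dose library 1 or 2, medium-dose library 1 or the Yijin-tang libraries (log2 -0.87 to -0.73). SPDEF, a goblet cell factor that acts after ATOH1, did not pass (log2 0.13 ± 0.07, adjusted p = 0.21), and KLF4 was the gene that rose (log2 0.57). Without medium-dose library 1, 9 fell and 1 rose, with a median of -0.65. In the test between steps 5 of the 20 fell more in the upper step, against 2.39% of all genes with a lower value there.

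Among 10 mucins 4 fell and 1 rose, beside 11.5% and 11.2% of all genes. MUC13, a membrane mucin of the colon, was at 70.4, 67.7 and 66.6 CPM against 122, 103 and 99.1 CPM (log2 -0.66 ± 0.06, adjusted p = 5.4e-09). MUC3A and MUC20 fell by 0.52 and 0.49, MUC17 rose by 0.56 (0.51 and 0.44, not past the test, without library 3 of the high or of the medium dose), and MUC5AC, between 232 and 323 CPM in these libraries, did not pass. NOX1, the superoxide-producing oxidase of colon epithelium (chrX:100843324-100874345, minus strand), was at 3.92, 4.10 and 3.78 CPM against 17.3, 14.4 and 14.8 CPM (log2 -1.97 ± 0.10, adjusted p = 6.2e-14). Its organiser subunit NOXO1 fell by 0.64. Of the 5 tested oxidase genes 4 were lower, against 11.5% of all genes, and 2 were lower without medium-dose library 1. WNT targets and stem cell genes fell in 9 of 16 cases, against 11.5% of all genes, and rose in 0. EPHB3, a crypt-position receptor, was at 10.8 CPM in all 3 high-dose libraries against 21.3, 20.1 and 20.6 CPM (log2 -0.94 ± 0.08, adjusted p = 1.3e-09). The stem cell factor ASCL2 fell by 1.03 and the WNT target SP5 by 0.75. AXIN2 and LGR5, the usual reporters of WNT activity, did not pass, with log2 values of -0.01 ± 0.05 and -0.07 ± 0.05. When medium-dose library 1 was left out, 6 of the 16 fell.

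Enterocyte genes fell in 6 of 15 tested cases and rose in 1, beside 11.5% and 11.2% of all genes. HNF4G and HNF4A, factors of the absorptive lineage, fell by 0.55 and 0.26, and the brush border protein VIL1 by 0.49. KRT20, a keratin of mature colonocytes, rose from 234, 225 and 221 CPM to 345, 331 and 344 CPM (log2 0.59 ± 0.05, adjusted p = 2.6e-10). Of 10 Notch pathway genes 1 rose and 2 fell, counts near the 11.2% and 11.5% over all genes. JAG1, a ligand, rose by 0.45, and HES1, the main target, and LFNG fell by 0.25 and 0.21. HES1 did not pass without high-dose library 1 or medium-dose library 3 (log2 -0.21 and -0.19).

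Interferon response genes were lower at 500 µg/mL. Of 30 tested genes of 32, 20 fell, against 11.5% of all genes, 2 rose and 8 did not pass, with a median of -0.37. Again 20 fell without medium-dose library 1, and 1 rose. Most were of low abundance. OAS2, an antiviral nucleotide synthetase, was at 0.729, 0.431 and 0.647 CPM against 2.07, 1.92 and 2.19 CPM (log2 -1.80 ± 0.27, adjusted p = 1.4e-05). IFIT1, which binds foreign RNA caps, was at 2.00, 1.33 and 1.79 CPM against 4.86, 2.93 and 2.95 CPM (log2 -1.07 ± 0.18, adjusted p = 4.0e-05), and DDX60 fell by 1.11. In these 3 genes the doses were separated, as in 97.6% of all called genes, and medium-dose library 1 was not always the highest. IRF9, the DNA-binding part of the interferon-activated factor ISGF3, fell by 0.90 ± 0.11 (adjusted p = 5.5e-07), while its partner STAT2 fell by 0.36. In the test between steps 6 of the 30 fell more in the upper step, against 2.39% of all genes with a lower value there. The interferon-stimulated response element core (TTTC, any 2 bases, TTTC) was found in 16 of 24 list members with a window and in 3.65% of all windows. It stood in 10 of the 16 that fell and in 5 of the 5 that did not pass. IFIT1 holds 2 copies within chr10:89392495-89392554 on the plus strand. DDX60 holds the core on the opposite strand within chr4:168318771-168318830 on the minus strand (RefSeq, GRCh38.p14).
IFIT1: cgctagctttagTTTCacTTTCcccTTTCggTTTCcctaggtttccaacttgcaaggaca
DDX60: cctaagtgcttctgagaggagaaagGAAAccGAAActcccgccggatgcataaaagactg
NF-kB targets split, with 5 of 12 higher and 2 lower, beside 11.2% and 11.5% of all genes. CXCL8, a neutrophil attractant, and NFKBIA, the pathway's inhibitor, rose by 0.58 and 0.37, and LCN2, an iron-siderophore binder, fell by 0.61.

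**Figure D4:**
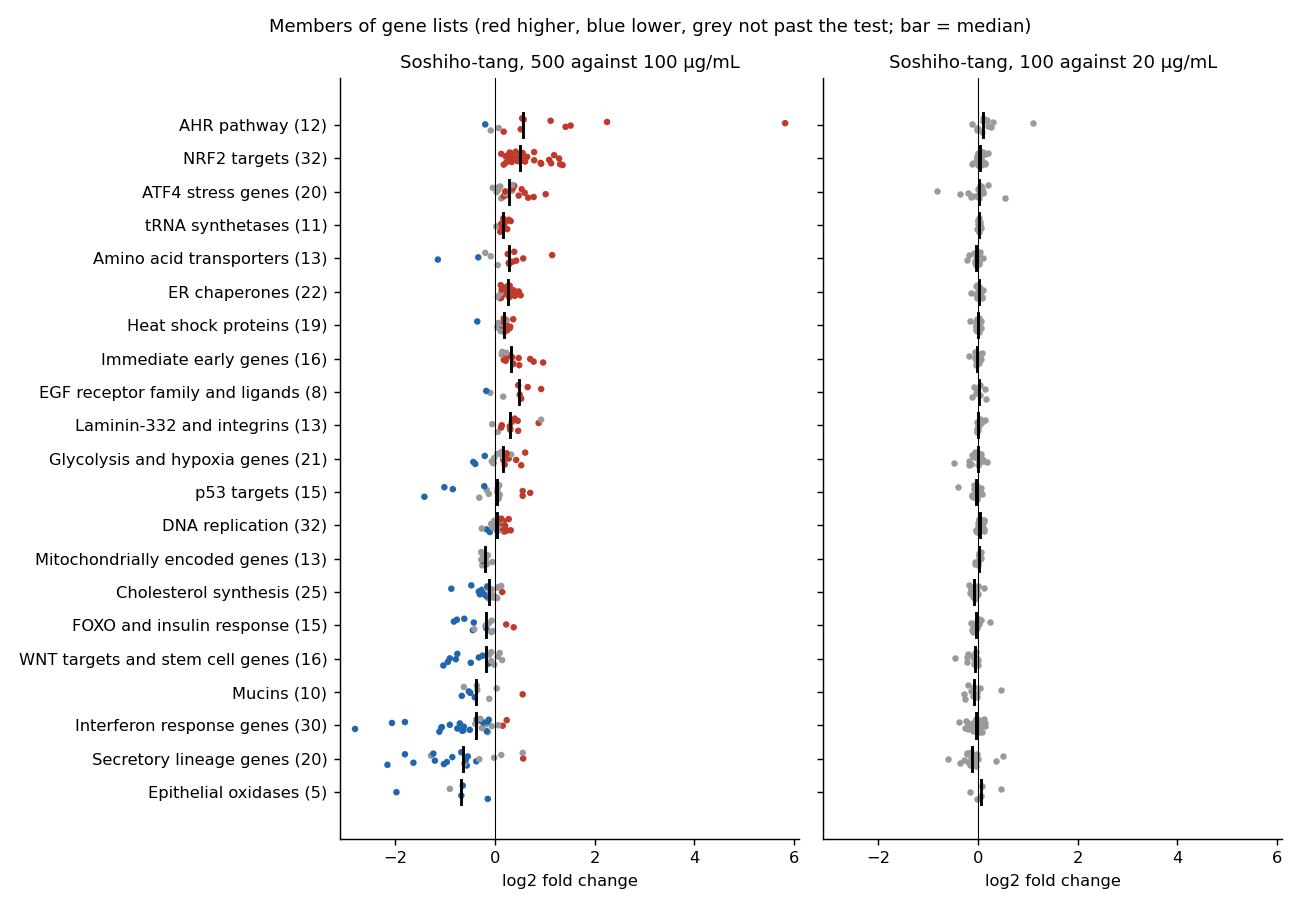
Log2 fold change of the tested members of 21 gene lists (number tested in brackets) from 100 to 500 µg/mL on the left and from 20 to 100 µg/mL on the right. Red members were called higher, blue lower and grey not, and the bar is the list's median. The left panel runs from a median of 0.56 in the AHR list to -0.67 in the oxidase list, and in the right panel no member was called.

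Sterol synthesis genes were slightly lower. Of 25 genes 11 fell, against 11.5% of all genes, and 1 rose, with a median of -0.12; without that library 8 fell and 2 rose, with a median of -0.07, and without high-dose library 1, 7 fell. HMGCS1, an early enzyme, was at 160, 156 and 162 CPM against 223, 181 and 184 CPM (log2 -0.30 ± 0.06, adjusted p = 5.9e-04), and adjusted p was 0.075 when only the 2 doses were fitted. TM7SF2 and LSS fell by 0.47 and 0.32. The acetate-activating ACSS2 fell by 0.77, whereas FASN, SCD and ACACA of fatty acid synthesis did not pass. The sterol element core TCACNCCAC was found in 1 of 18 list members and in 1.15% of all windows. Of 7 LXR targets tested 3 rose and 1 fell, beside 11.2% and 11.5% of all genes. The fall was that of the cholesterol exporter ABCA1, from 7.06, 5.98 and 5.58 CPM to 4.60, 3.52 and 3.98 CPM (log2 -0.62 ± 0.15, adjusted p = 0.0028), while its relative ABCG1 rose by 0.44. The call of ABCG1 was lost without high-dose library 2 or 3 or medium-dose library 1 or 2 (0.38 to 0.43) and in DESeq2 (adjusted p = 0.082).

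Glycolysis and hypoxia genes rose in 10 of 21 cases and fell in 3, beside 11.2% and 11.5% of all genes. SLC2A1, the basal glucose transporter, was at 707, 725 and 707 CPM against 448, 475 and 476 CPM (log2 0.61 ± 0.04, adjusted p = 8.3e-12), and HK2 and LDHA rose by 0.28 and 0.22. The hypoxia marker CA9 fell by 0.43 and VEGFA did not pass, with log2 0.13, but did without medium-dose library 1 (0.20). Of 16 fatty acid oxidation genes 6 rose and 1 fell, beside 11.2% and 11.5% of all genes. FOXO and insulin response genes fell in 7 of 15 cases and rose in 2, beside 11.5% and 11.2% of all genes. TXNIP, an inhibitor of thioredoxin and glucose uptake, was at 29.4, 30.3 and 29.8 CPM against 45.6, 47.8 and 43.9 CPM (log2 -0.61 ± 0.06, adjusted p = 3.9e-09), and CCNG2 fell by 0.44, while FOXO1 rose by 0.38.

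HT29 is known to carry mutant p53. Of 15 p53 targets 3 rose and 4 fell, beside 11.2% and 11.5% of all genes. CDKN1A, a brake on the cell cycle, was at 13.2, 13.6 and 14.9 CPM against 9.94, 8.96 and 9.44 CPM (log2 0.56 ± 0.09, adjusted p = 1.7e-05), and the stress cytokine GDF15 rose by 0.71. BTG2, an antiproliferative gene, was at 14.4, 13.3 and 13.4 CPM against 38.1, 34.9 and 36.1 CPM (log2 -1.41 ± 0.06, adjusted p = 5.6e-16), and SESN1 and TP53INP1 fell by 0.84 and 1.01. MDM2 did not pass, with log2 0.05. Proliferation genes moved little in size. Of 32 replication genes 10 rose and 2 fell, beside 11.2% and 11.5% of all genes, with a median of 0.04. Of 22 mitosis genes 10 rose, beside the same 11.2%, with a median of 0.10. CDC6, which loads replication origins, rose by 0.32 and CCNB1 by 0.17, while MCM2 and MKI67 did not pass. Without medium-dose library 1, 5 and 6 of these rose, and the same numbers rose without high-dose library 2 for replication and high-dose library 1 for mitosis. Of 12 apoptosis regulators 3 rose, beside 11.2% of all genes, by at most 0.33, the value of the death receptor TNFRSF10A, and 1 rose without medium-dose library 1. The 13 genes encoded in mitochondrial DNA summed to 79584 to 97402 CPM at 500 µg/mL and to 99576 to 102817 CPM at 100 µg/mL. The high-dose range was the wider one. The ranges did not overlap, which also held for 40.4% of all single genes. All 13 log2 values were negative, from -0.27 to -0.05 with a median of -0.19. MT-CO3 was the 1 that passed the test (log2 -0.24), a share of 7.69% against 11.5% of all genes that fell. It did not pass without high-dose library 2 or any 1 of the 3 medium-dose libraries (log2 -0.26 to -0.17).

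Several of the largest changes lay outside these lists. SLC22A3, an organic cation transporter, was at 23.0, 23.0 and 24.0 CPM against 7.06, 7.03 and 7.69 CPM (log2 1.68 ± 0.10, adjusted p = 4.2e-13). ADGRF1, an adhesion G protein-coupled receptor, was at 128, 126 and 120 CPM against 40.7, 52.0 and 49.8 CPM (log2 1.39 ± 0.07, adjusted p = 1.7e-12). No overlap between the doses was a condition for naming both, and SLC22A3 at 100 µg/mL lay near its vehicle mean of 6.05 CPM. The Hedgehog factor GLI2 rose by 1.52, the long noncoding RNA LUCAT1 by 1.41, the kinase anchor AKAP12 by 1.29, the sphingolipid enzyme subunit SPTSSB by 1.24, and the kinase PIM1 and the acyltransferase GPAT3 by 1.23 each. The rise of LUCAT1 was not tested for reads of overlapping genes, since no source used here gives the use of strand in counting.

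The largest fall of a gene with at least 2 CPM was that of CD200, an immune-inhibitory surface protein (chr3:112332347-112362812, plus strand), at 0.911, 0.827 and 1.19 CPM against 5.35, 4.37 and 4.12 CPM (log2 -2.25 ± 0.21, adjusted p = 7.3e-09). MAP2K6, a kinase that activates p38, was at 0.820, 0.755 and 0.846 CPM against 3.60, 2.62 and 3.39 CPM (log2 -1.99 ± 0.18, adjusted p = 2.7e-09). No overlap between the doses was a condition for naming both genes. The urea transporter SLC14A1 fell by 1.93, the chondroitin sulfotransferase CHST3 by 1.72, CTTNBP2 by 1.63 and the kinase SPEG by 1.53. The transporter SLC38A11 and the ubiquitin ligase RNF144B fell by 1.52 each, the GABA receptor subunit GABRP by 1.49 and the kinase anchor AKAP7 by 1.48. NPY6R fell by 1.68, but it is annotated as a pseudogene of the neuropeptide Y receptor family, so its reads are uncertain as to origin.

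The same nominal step with Yijin-tang, a formula built around Pinellia tuber, was much smaller. Between 100 and 500 µg/mL of Yijin-tang 100 genes changed (0.629% of those tested), 38 higher (0.239%) and 62 lower (0.39%). Leaving out any 1 of its 6 libraries lowered the count, to 73 at most (medium-dose library 1) and 21 at least (high-dose library 1). Of the 100 genes, 90 were also called in the Soshiho-tang step, which called 22.7% of all genes. All 90 moved in the same direction. They are 90% of the Yijin-tang genes and 2.49% of the Soshiho-tang genes. The 2 steps share no library. A test of the difference between the steps called 771 genes (4.85%), 387 with a higher value for Soshiho-tang (2.43%) and 384 with a lower one (2.42%). The formulas were matched in µg/mL and not in effect on viability, so a difference in potency and a difference in kind cannot be told apart.

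CYP1A1 reached a mean of 7.69 CPM at 500 µg/mL of Yijin-tang (log2 1.92, adjusted p = 0.016), and the Soshiho-tang step exceeded that step by 3.90 ± 0.53 on the log2 scale (adjusted p = 3.1e-04). In this formula too, library 1 of the medium dose stood apart, on the other side, with 3.45 CPM of CYP1A1 against 1.34 and 1.39 and 100 CPM of CYP1B1 against 66.0 and 65.6. The comparison of the formulas thus includes 2 libraries that stand apart from their groups. The difference for CYP1A1 was 3.49 without the Soshiho-tang one and 3.30 without the Yijin-tang one. NRF2 targets rose in 7 of 32 cases with Yijin-tang, against 0.239% of all genes, with a median of 0.15. Of the 32, 19 rose more with Soshiho-tang, against 2.43% of all genes with a higher value there. Among 20 tested ATF4 genes 1 was called with Yijin-tang, the fall of DDIT4, beside 0.39% of all genes that fell there. ATOH1 and NOX1 did not pass with Yijin-tang, with log2 values of -0.26 and -0.33. The differences between the formulas were -1.89 for ATOH1 and -1.64 for NOX1 (adjusted p = 5.1e-05 and 5.8e-09).

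Sterol genes did not follow the order of the other lists. With Yijin-tang 12 of 25 fell, with a median of -0.22, against 11 and -0.12 with Soshiho-tang. Over all genes 0.39% fell with Yijin-tang and 11.5% with Soshiho-tang. SQLE and CYP51A1, enzymes of the later pathway, fell with Yijin-tang by 0.25 and 0.22 and did not pass with Soshiho-tang, and the differences of 0.33 and 0.27 passed the test (adjusted p = 2.0e-04 and 0.0024). Without medium-dose library 1 of Soshiho-tang, SQLE rose there by 0.14 (adjusted p = 0.013). ABCG1 stood at a mean of 7.54 CPM after 500 µg/mL of Yijin-tang and 2.86 CPM after 100 µg/mL (log2 1.41, adjusted p = 1.4e-07), a larger rise than with Soshiho-tang by 0.97 (adjusted p = 0.0022). ABCA1 was lower with Soshiho-tang and not past the test with Yijin-tang (log2 0.42), a difference of -1.04 (adjusted p = 0.0014).

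**Figure D5:**
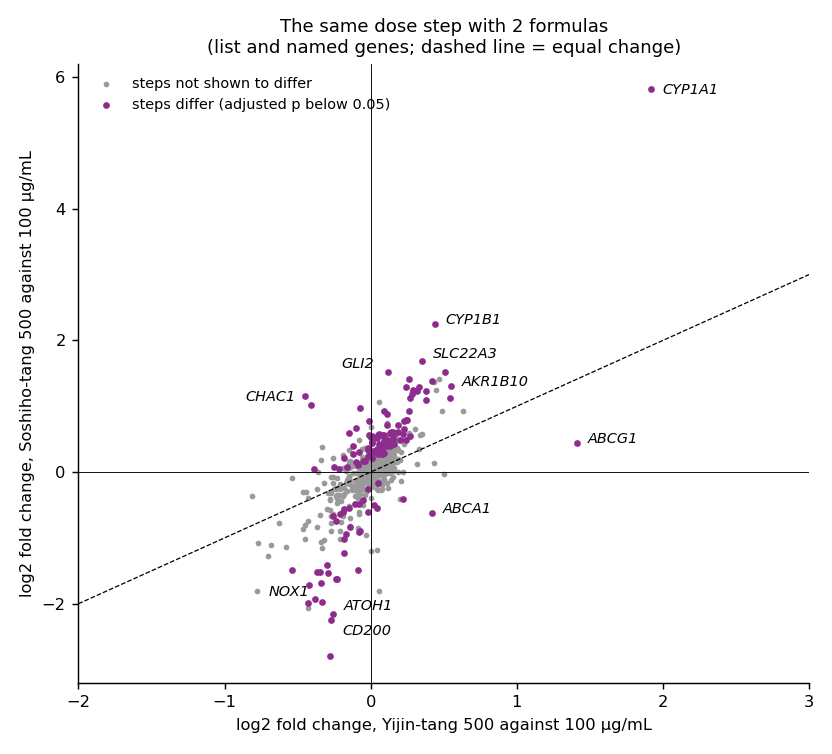
Log2 fold change from 100 to 500 µg/mL of Soshiho-tang (vertical) against the same step of Yijin-tang (horizontal) for all tested list members and named genes. Purple genes differed between the formulas at an adjusted p below 0.05, and the dashed line marks equal change. CYP1A1 lies at 5.82 and 1.92, and ABCG1 and ABCA1 lie to the right of the dashed line.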

How the data were processed

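RNA from HT29 cells was sequenced in 30 libraries, and the deposited table holds RSEM expected counts per gene for each of them, with 60675 rows. Per the submitters' processing notes, the tools were FastQC 0.11.9 and Trim Galore 0.6.5 for the reads, STAR 2.7.3a for alignment to GRCh38 and RSEM 1.3.3 for counting. The annotation release and the use of strand are not given in the sources used here. Another 30 columns, nameless and empty, were left aside. Between 9.52% and 11.52% of the expected counts in a library, zeros included, were not whole, and all were rounded before testing.

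The 21 libraries of Soshiho-tang, Yijin-tang and their vehicle were fitted together; the batch holds 24, and its other 3, 1 at each dose of Okbyeongpung-san, were not used. The fit was made in R 4.3.3 with edgeR 4.0.16 (filterByExpr, TMM factors of 0.94 to 1.02, robust quasi-likelihood fit, 14 residual degrees of freedom, biological coefficient of variation 4.7%), and contrasts were tested over 15895 genes with Benjamini-Hochberg adjustment. Standard errors are of the log2 fold change. On simulated data for the 500 against 100 µg/mL comparison (15723 genes tested), 200 genes were changed, in the high-dose group only. The test recovered 48% of genes changed 1.25-fold, 64% at 1.5-fold, 82% at 2-fold and 93.9% at 4-fold, with 7 false among 150 calls. In the data 22.7% of genes were called, a far larger share, so these rates may not carry over. Replicate libraries of a group differed by more than counting noise (chi-square per degree of freedom 2.41 to 5.96), so none was treated as 1 library deposited more than once; this does not show that they are separate cultures.

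The 39 gene lists, the comparison and its members were chosen with earlier results of these data known. Genes were named by a rule: the 15 largest rises and 15 largest falls among called genes with a mean of at least 2 CPM and no overlap between doses, the first 4 genes of each list and the 6 with the smallest adjusted p, and the 5 largest and 5 smallest differences between steps and between formulas. Outside the rule, and chosen after their values were seen, are ABCC2, ADH1C, ADH6, AHR, AKR1C1, AKR1C2, AKR1C3, ARNT, CYP1A2, CYP51A1, DDIT4, DHRS9, FTH1, FTL, PHGDH, PSPH, SLC3A1, SQLE, STAT2 and TALDO1. Some genes that the rule names are not reported here. Gene names and positions are from GENCODE 29, which held 56996 of the identifiers. Promoter windows run from 250 bases before to 50 after a RefSeq start.

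Alternatives were DESeq2 1.42.0, its size factors in edgeR, 2 other filters on low counts, fits of fewer groups, the replicate number as a block, and leaving out each library in turn.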

Additional observations from a re-analysis of the deposited data

Results flagged for a closer look

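The step from 100 to 500 µg/mL differed between Soshiho-tang and Yijin-tang for 771 genes by a test of the difference itself (edgeR, Benjamini-Hochberg adjusted). Among genes chosen for size, the Soshiho-tang step was higher by a log2 difference of 3.90 for CYP1A1, 1.81 for CYP1B1, 1.43 for CHAC1, 1.40 for the Hedgehog factor GLI2 and 1.33 for the cation transporter SLC22A3. It was lower for the surface protein CD200 (-1.98), the secretory lineage factor ATOH1 (-1.89), the oxidase NOX1 (-1.64), the p38-activating kinase MAP2K6 (-1.57) and the urea transporter SLC14A1 (-1.55). Medium-dose library 1 stood apart in both formulas, on opposite sides for CYP1A1 and CYP1B1, and its part in the other differences was not tested beyond the fits that left out 1 library, in which the count ranged from 536 to 677.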

How the results depend on the processing

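The count of 3608 genes was 3145 in DESeq2, 3639 with its size factors, 3445 with no filter on low counts, 3541 with a mean of at least 10 counts in every group, 2728 without Yijin-tang, 4300 when only the 2 doses were fitted and 2656 to 3062 when 1 library was left out. The 277 genes past 2-fold became 157 with a mean of at least 10 counts in every group and 228 to 287 with 1 library left out. The step from 20 to 100 µg/mL gave 0 genes with any library left out and 1 when only those doses were fitted. Unequal steps (748) became 442 without Yijin-tang and 379 to 681 with 1 library left out. The Yijin-tang step (100) became 162 with no filter, 243 when only its doses were fitted and 21 to 73 with 1 library left out. The difference between formulas (771) became 1287 when only the groups compared were fitted and 536 to 677 with 1 library left out. The cause of these shifts was not tested.

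Of 163 called genes named in the text, 145 passed in every alternative. The calls of ABCG1, CUL3, DHRS3, HSPA1A, KEAP1 and KRT8 were lost without the Yijin-tang libraries (adjusted p from 0.054 to 0.083 by edgeR). Those of MTF1, MUC17, MUC2, TALDO1 and XBP1 were lost there too (0.055 to 0.086). Of 23 named genes that were not called, 4 passed in at least 1 alternative: FASN when only the 2 doses were fitted (log2 -0.16), MAFK without high-dose library 3 (0.22), SQLE without medium-dose library 1 (0.14) and VEGFA without medium-dose library 1 (0.20) or with a replicate block (0.13). Of these 23, 3 changed sign with 1 library left out: AXIN2 (log2 0.00, 0.03 and 0.04 in 3 of 6 fits), MUC5AC (range -0.05 to 0.17 over the 6) and SPRY4 (range -0.02 to 0.08).

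Same-numbered libraries of the 500 and 100 µg/mL doses of Soshiho-tang had deviations correlated at r = 0.06, 0.06 and 0.07, under the threshold of 0.1, though each high-dose library correlated best with its own number. With a replicate block the counts were 3739 for the upper step, 0 for the lower step, 767 for unequal steps, 113 for Yijin-tang and 794 for the difference between formulas.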

Other observations

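Carcinoembryonic antigen genes, surface proteins of colorectal cancer cells, were higher at 500 than at 100 µg/mL of Soshiho-tang. CEACAM5 was at 11.7, 10.1 and 12.0 CPM against 7.15, 5.24 and 7.58 CPM (log2 0.74 ± 0.13, adjusted p = 1.2e-04 by edgeR), and CEACAM6 at 59.6, 52.9 and 61.1 CPM against 39.3, 35.3 and 39.2 CPM (log2 0.61 ± 0.07, adjusted p = 3.1e-07). The doses did not overlap for either gene, as for 97.6% of all called genes. Of 9 markers of HT29 identity 3 rose and 1 fell, beside 11.2% and 11.5% of all genes. The third that rose was the keratin KRT8 (0.16), and the epithelial galectin LGALS4 fell by 0.22. KRT8 lost its call without high-dose library 1 or medium-dose library 3 (0.15 and 0.14). Of 7 tested retinoid genes of 12, 1 rose and 2 fell, beside 11.2% and 11.5% of all genes. RDH10, which makes retinal from retinol, rose from 36.2, 36.3 and 37.7 CPM to 53.5, 51.0 and 55.4 CPM (log2 0.53 ± 0.05, adjusted p = 2.3e-09). RARRES1 and the retinal reductase DHRS3 fell by 0.84 and 0.17, of which DHRS3 lost its call without high-dose library 1 or 2 or medium-dose library 2 or 3 (log2 -0.18 to -0.13) and in DESeq2 (adjusted p = 0.063).

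Of 20 ribosome biogenesis genes 9 rose and 0 fell, beside 11.2% and 11.5% of all genes. The largest rise was 0.22, that of the nucleolar protein NOLC1. The number that rose was 5 without medium-dose library 1, 4 without medium-dose library 3 and 17 when only the 2 doses were fitted. Of 20 lysosome and autophagy genes 5 rose and 2 fell, beside 11.2% and 11.5% of all genes, and 3 rose without high-dose library 2 or without medium-dose library 1, a number near the share over all genes. GLA, a lysosomal galactosidase, was at 37.6, 41.6 and 38.6 CPM against 31.1, 31.5 and 31.8 CPM (log2 0.32 ± 0.06, adjusted p = 1.3e-04), and the mitophagy receptor BNIP3L fell by 0.27, a call lost without high-dose library 1 or medium-dose library 1 or 3 (log2 -0.25 each).

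Low-abundance genes of alcohol and retinoid metabolism, picked out after their values were seen, moved in opposite directions. ADH1C, an alcohol dehydrogenase, had a mean of 0.166 CPM at 500 µg/mL and 1.54 CPM at 100 µg/mL (log2 -3.25 ± 0.33), and ADH6 had 0.365 against 1.86 CPM (log2 -2.36 ± 0.23). DHRS9, a retinol dehydrogenase, had 2.42 against 0.778 CPM (log2 1.63 ± 0.26, adjusted p = 2.7e-05). ADH1C has close relatives in the genome, so its reads are uncertain as to the gene.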
